A study of Mus musculus with 11 samples.

Results

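Transcripts of 10 circadian clock genes were followed in 11 mouse tumors of the small cell lung cancer type, which is a neuroendocrine carcinoma. The genes were Arntl and Clock (activators), Per1, Per2, Per3, Cry1, Nr1d1 and Nr1d2 (repressors), and Dbp and Tef (outputs). They were found by symbol among the 23284 genes listed for each tumor, and all 10 passed the filter on low counts, which left 15237 genes. The symbols were selected on their read counts in MYCN ON against MYCN OFF tumors, with that difference already known, so their levels and fold changes in that comparison are given as a description, with no test. Both groups had the labelled genotype Rb;p53,TRE-MYCN, LSL-RTTA. In it MYCN lies under a tetracycline-responsive element, and the doxycycline-dependent transactivator rtTA behind a stop cassette that Cre removes. In the 7 MYCN ON tumors doxycycline was kept on. The 4 MYCN OFF tumors had been without the drug for 7 days. The drug and the transgene therefore changed together and cannot be told apart. The labels give no Cre driver, no animal for any tumor and no time of day of collection. Clock transcripts of mouse tissues cycle daily, so a difference in collection time and a difference in MYCN cannot be told apart here either.

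The mammalian clock is a transcriptional feedback loop. BMAL1, the product of Arntl, pairs with CLOCK on E-box elements and switches on the Per, Cry, Nr1d1, Nr1d2, Dbp and Tef genes. PER and CRY proteins then enter the nucleus and block that pair. The Nr1d1 and Nr1d2 genes encode REV-ERB-alpha and REV-ERB-beta, heme-binding nuclear receptors that repress Arntl, while the ROR receptors activate it from the same element. DBP and TEF are PAR bZIP factors that carry the rhythm to D-box genes, where NFIL3 opposes them. In mouse tissues with a running clock, Arntl mRNA peaks at the opposite phase of the day from Nr1d1 and Dbp mRNA. MYC proteins with their partner MAX bind the same CACGTG E-box as the clock activators, and in human cancer cell lines high MYC or N-MYC has been reported to raise NR1D1 and lower ARNTL.

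The promoter sequences below show where these elements lie beside the members whose levels are described further on. They are RefSeq sequences of mouse build GRCm38.p6 (the authors aligned to mm9), read 5′ to 3′ on the gene's own strand, with motif letters in capitals. CACGTG is the E-box, TTATGNAA the D-box, and AGGTCA the core to which REV-ERB and ROR receptors bind, read as TGACCT on the other strand. All were searched on both strands and their letters do not overlap one another in the stretches shown. Cry1 has an E-box at position -60 from its annotated start (chr10:85185084-85185139, minus strand), Tef has one at -138 from its second annotated start (chr15:81811251-81811306, plus strand), and Per1 has one at -166 with the receptor core at -137 (chr11:69098758-69098842, plus strand).
Cry1: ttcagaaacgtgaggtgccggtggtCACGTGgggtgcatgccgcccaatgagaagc
Tef: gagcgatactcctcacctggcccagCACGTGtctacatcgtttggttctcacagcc
Per1: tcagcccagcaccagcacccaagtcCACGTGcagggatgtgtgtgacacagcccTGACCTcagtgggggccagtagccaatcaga
Per3 holds the D-box at -205 and again at -158 (chr4:151044791-151044895, minus strand), and Nr1d2 holds the receptor core at -77 (chr14:18239153-18239208, minus strand).
Per3: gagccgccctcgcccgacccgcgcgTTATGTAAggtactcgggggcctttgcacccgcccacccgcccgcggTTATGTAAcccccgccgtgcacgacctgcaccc
Nr1d2: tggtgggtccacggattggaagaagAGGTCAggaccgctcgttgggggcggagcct
The 150 bases before the Nr1d1 start hold none of the 3 motifs as spelled here (chr11:98775378-98775527, minus strand). Other spellings of these elements were not searched, nor were bases more than 250 before the start, so this does not show that Nr1d1 lacks such elements.
Nr1d1: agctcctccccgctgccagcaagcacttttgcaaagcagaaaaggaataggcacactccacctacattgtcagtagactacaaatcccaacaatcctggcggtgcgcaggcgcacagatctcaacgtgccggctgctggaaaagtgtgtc

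Promoter windows of 300 bases, 250 before and 50 after an annotated start, were at hand for 9 members, in 14 windows. CACGTG was in the windows of 3 of those 9 genes (Per1, Cry1 and Tef), against 7.15% of all 32851 windows. TTATGNAA was in those of 2 genes (Per1 and Per3), against 3.38% of all windows, and AGGTCA in those of 4 genes (Arntl, Clock, Per1 and Nr1d2), against 16.3%. These matches describe letters, not bound sites, and the shares of genes and of windows are counted over different units. In the unit of windows, CACGTG was in 4, TTATGNAA in 2 and AGGTCA in 4 of the 14 member windows.

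The libraries held 10324089 to 13123838 reads on genes in MYCN ON tumors and 8951733 to 12190957 in MYCN OFF tumors. Levels are CPM, read counts scaled to library depth, after TMM scaling, which corrects for library composition. Mycn, counted under its mouse symbol, stood at 36.5 to 171 CPM in MYCN ON tumors and 5.63 to 15.7 CPM in MYCN OFF tumors, so the labels held in all 11 libraries (log2 fold change 3.06, SE 0.47, edgeR adjusted p = 0.00139). Lung tissue content differed between libraries. The 10 lung epithelium markers summed to 56.3 to 3278 CPM in MYCN ON tumors and 148 to 32674 CPM in MYCN OFF tumors. Sftpc, the surfactant gene of alveolar type 2 cells, exceeded 100 CPM in MYCN ON tumors 3 and 5 and in MYCN OFF tumors 1, 3 and 4. These 5 are called lung-containing below, and the other 6 lung-poor. The 8 neuroendocrine markers were all detected, summing to 1921 to 3497 CPM in MYCN ON tumors and 1449 to 7425 CPM in MYCN OFF tumors. In such bulk tissue, fewer cells of a type and less RNA per cell cannot be told apart. Across all genes tested, 29.4% differed between the groups by edgeR's quasi-likelihood test at an adjusted p below 0.05. Of all genes tested, 16.0% were called higher in MYCN ON tumors and 13.4% lower. Among the members 1 was called higher (Cry1), 3 lower (Nr1d1, Per3 and Dbp) and 6 not at all. The ranges of the 2 groups did not overlap for 1 member, against 16.8% of all genes tested. The choice of genes used this contrast, so neither count is read as a result.

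The activators Arntl and Clock had overlapping levels in the groups. Arntl, whose product BMAL1 is the DNA-binding partner of CLOCK, ranged from 14.5 to 53.0 CPM in MYCN ON tumors (median 22.5), against 31.7, 34.6, 43.9 and 30.5 CPM in MYCN OFF tumors 1 to 4. MYCN ON tumors 2 and 7, at 43.7 and 53.0 CPM, were among the highest of all 11, and the other 5 lay below every MYCN OFF tumor. The log2 fold change was -0.28 (SE 0.33). Clock ranged from 51.0 to 106 CPM in MYCN ON tumors (median 83.8), against 65.5, 130, 94.3 and 69.9 CPM in MYCN OFF tumors. The MYCN OFF range enclosed most of the MYCN ON tumors, and the log2 fold change was -0.07 (SE 0.23), with a sign that turned in 3 of 22 alternative settings.

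**Figure D1:**
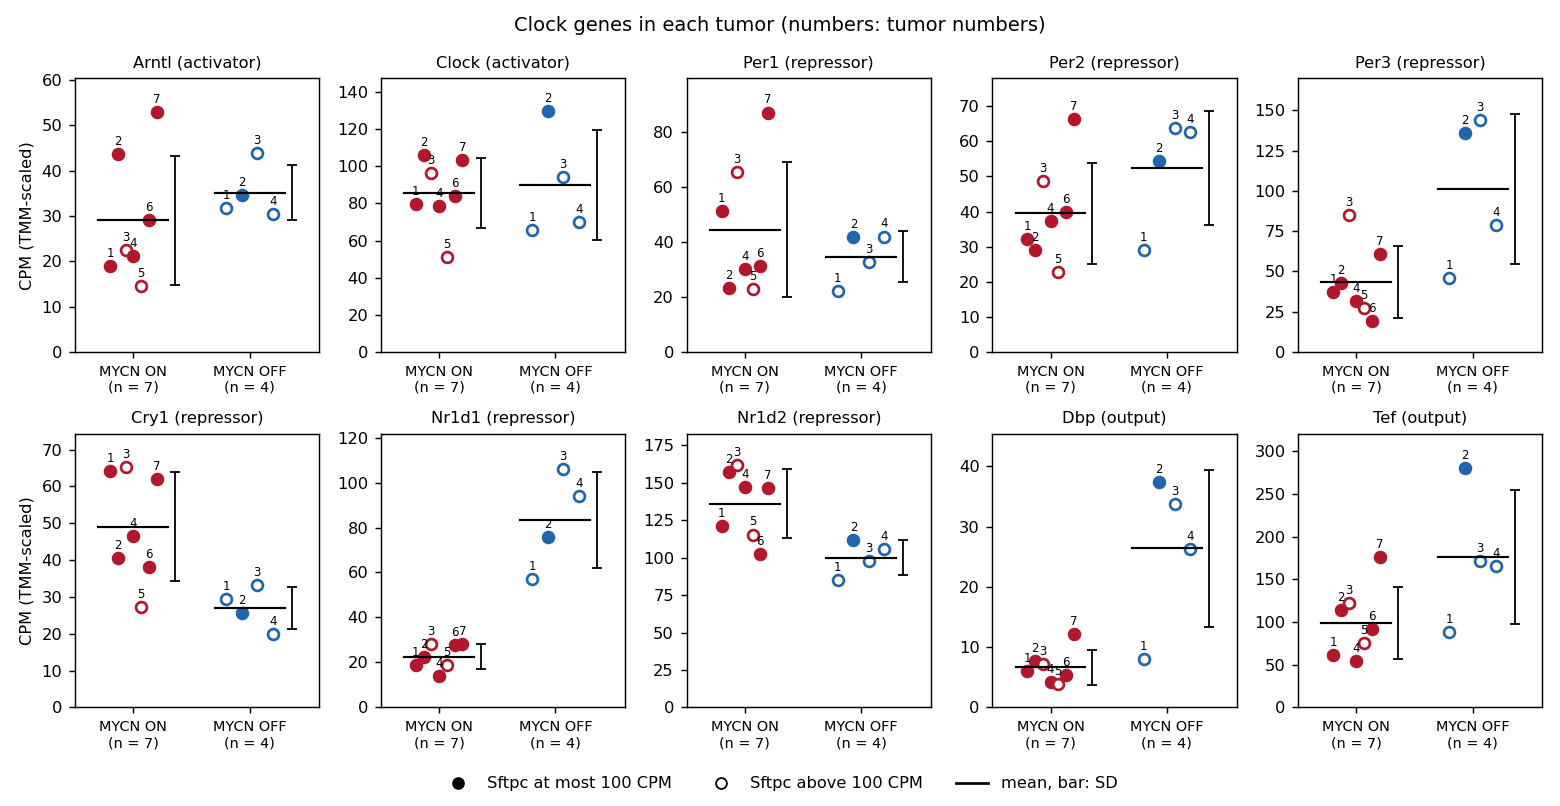
Level of each of the 10 clock genes in CPM (linear axis from 0), with MYCN ON tumors left of MYCN OFF tumors in every panel. Points are tumors numbered by replicate, open where Sftpc exceeded 100 CPM, with a line at the group mean and a bar for the SD. Nr1d1 has all 7 MYCN ON tumors at or below 28.3 CPM and all 4 MYCN OFF tumors at or above 57.0 CPM, while Arntl, Clock and Per1 overlap.

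The repressors did not move as a block. Nr1d1 was lower and Nr1d2 somewhat higher in MYCN ON tumors, Per3 and Cry1 differed in opposite directions, and Per1 and Per2 overlapped. Nr1d1, encoding REV-ERB-alpha, stood at 14.0 to 28.3 CPM in MYCN ON tumors (median 22.3), against 57.0, 75.9, 106 and 94.1 CPM in MYCN OFF tumors 1 to 4. Every MYCN ON tumor lay below every MYCN OFF tumor, a separation that 5.41% of all genes tested also showed in this direction. The group means were 22.6 ± 5.63 CPM in MYCN ON tumors (SD, n = 7) and 83.2 ± 21.4 CPM in MYCN OFF tumors (SD, n = 4). The log2 fold change was -1.88 (SE 0.23), which is 3.68-fold lower in MYCN ON tumors. The depth behind these values was 159 to 361 reads per MYCN ON tumor and 712 to 1568 per MYCN OFF tumor.

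The paralog Nr1d2, encoding REV-ERB-beta, lay on the other side. Its levels were 102 to 162 CPM in MYCN ON tumors (median 147), against 84.8, 112, 97.6 and 106 CPM in MYCN OFF tumors. Of the MYCN ON tumors, 6 of 7 were above the highest MYCN OFF tumor, tumor 6 being the exception, and the log2 fold change was 0.44 (SE 0.16). The ratio of Nr1d1 to Nr1d2 reads within a tumor does not depend on library scaling. It was 0.095 to 0.270 in MYCN ON tumors (median 0.163) and 0.672 to 1.09 in MYCN OFF tumors (median 0.784), without overlap. Neither gene length enters the comparison, since the same pair of genes is read in every tumor. Every ratio given here and below includes a member chosen on this contrast. A ratio of genes that differ in opposite directions also widens the gap between the groups. How often ratios of other gene pairs separate the groups was not counted. The ratios are therefore a description, and their lack of overlap adds no evidence to the levels of the single genes.

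Per3, a period paralog that is not needed for a running clock in mice, stood at 19.1 to 84.9 CPM in MYCN ON tumors (median 37.3), against 46.1, 136, 144 and 78.7 CPM in MYCN OFF tumors. The ranges overlapped through MYCN OFF tumors 1 and 4 and MYCN ON tumors 3 and 7. Of the MYCN ON tumors, 5 of 7 lay below the lowest MYCN OFF tumor. The log2 fold change was -1.22 (SE 0.40), which is 2.33-fold lower in MYCN ON tumors. Per1, which also answers directly to growth factor and glucocorticoid signals, ranged from 22.8 to 87.0 CPM in MYCN ON tumors (median 31.3), against 22.2, 41.7, 32.7 and 41.9 CPM in MYCN OFF tumors. The MYCN ON tumors bracketed nearly the whole MYCN OFF range (log2 fold change 0.36, SE 0.39). Per2, a core member of the inhibitory complex, ranged from 22.9 to 66.3 CPM in MYCN ON tumors (median 37.2), against 29.1, 54.3, 63.7 and 62.7 CPM in MYCN OFF tumors (log2 fold change -0.41, SE 0.30). The highest Per2 level of all tumors was in MYCN ON tumor 7, and all 4 MYCN OFF tumors lay inside the MYCN ON range. Per3 reads per Per1 read were 0.612 to 1.86 in MYCN ON tumors and 1.88 to 4.40 in MYCN OFF tumors, adjacent ranges without overlap. Per3 reads per Per2 read did overlap, at 0.478 to 1.74 in MYCN ON tumors and 1.26 to 2.51 in MYCN OFF tumors.

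Cry1, the stronger repressor of the mouse cryptochromes, was higher on average in MYCN ON tumors. It ranged from 27.2 to 65.2 CPM in MYCN ON tumors (median 46.6), against 29.5, 25.7, 33.3 and 19.98 CPM in MYCN OFF tumors. All MYCN ON tumors except tumor 5 were above the highest MYCN OFF tumor. The means were 49.1 ± 14.9 CPM in MYCN ON tumors (SD, n = 7) and 27.1 ± 5.69 CPM in MYCN OFF tumors (SD, n = 4), with a log2 fold change of 0.86 (SE 0.26). Its paralog Cry2, which is not one of the 10 genes, averaged 51.9 ± 24.8 CPM in MYCN ON tumors (SD, n = 7) and 80.9 ± 27.9 CPM in MYCN OFF tumors (SD, n = 4) and did not pass the test (log2 fold change -0.64, SE 0.33, edgeR adjusted p = 0.159). Cry1 reads per Cry2 read were 0.604 to 1.46 in MYCN ON tumors (median 0.895) and 0.216 to 0.522 in MYCN OFF tumors (median 0.379), without overlap.

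Both output genes had lower mean levels in MYCN ON tumors. Dbp, a transcriptional activator whose mRNA swings widely over the day in mouse liver, stood at 3.83 to 12.2 CPM in MYCN ON tumors (median 6.04), against 8.003, 37.4, 33.7 and 26.4 CPM in MYCN OFF tumors. Of the MYCN ON tumors, 6 of 7 lay below the lowest MYCN OFF tumor. The groups overlapped through MYCN OFF tumor 1 and MYCN ON tumor 7. The means were 6.64 ± 2.85 CPM in MYCN ON tumors (SD, n = 7) and 26.4 ± 13.1 CPM in MYCN OFF tumors (SD, n = 4), a log2 fold change of -1.99 (SE 0.42) and 3.97-fold lower in MYCN ON tumors. Dbp rested on the fewest reads of the 10 members, 47 to 146 per MYCN ON tumor and 100 to 499 per MYCN OFF tumor. Tef, its family member, ranged from 54.1 to 176 CPM in MYCN ON tumors (median 92.2), against 88.0, 280, 171 and 166 CPM in MYCN OFF tumors. MYCN ON tumor 7 exceeded 3 of the 4 MYCN OFF tumors, and those 3 (tumors 1, 3 and 4) fell inside the MYCN ON range (log2 fold change -0.83, SE 0.35).

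**Figure D2:**
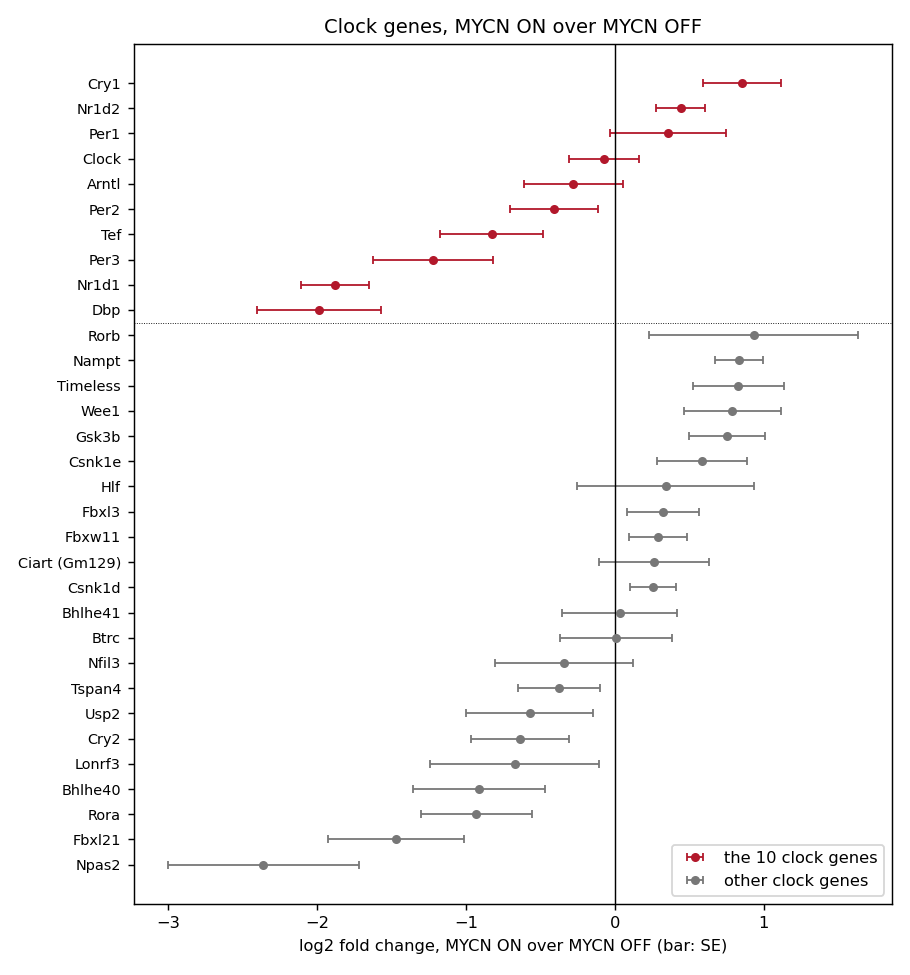
Log2 fold change of MYCN ON over MYCN OFF tumors with its standard error, for the 10 members and the 22 other clock genes each set sorted by fold change, with 0 marked by a line. Nr1d1 at -1.88 and Dbp at -1.99 lie farthest below 0 among the members, and Cry1 at 0.86 farthest above.

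The arms of the loop were compared within each tumor as differences of mean log2 CPM. Outputs minus activators was -1.43 to -0.63 in MYCN ON tumors (median -0.996), against -0.77, 0.61, 0.24 and 0.52 in MYCN OFF tumors 1 to 4. MYCN OFF tumors 2, 3 and 4 were above all MYCN ON tumors, and MYCN OFF tumor 1 lay among them. The mean difference, MYCN ON minus MYCN OFF, was -1.11. Repressors minus activators, in contrast, differed by -0.12 between the group means, with overlapping ranges, since members that were higher and lower entered the same average. Nr1d1 reads per Arntl read were 0.510 to 1.30 in MYCN ON tumors and 1.798 to 3.09 in MYCN OFF tumors, without overlap. Dbp reads per Arntl read were 0.176 to 0.322 in MYCN ON tumors and 0.253 to 1.08 in MYCN OFF tumors, overlapping through MYCN OFF tumor 1.

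**Figure D3:**
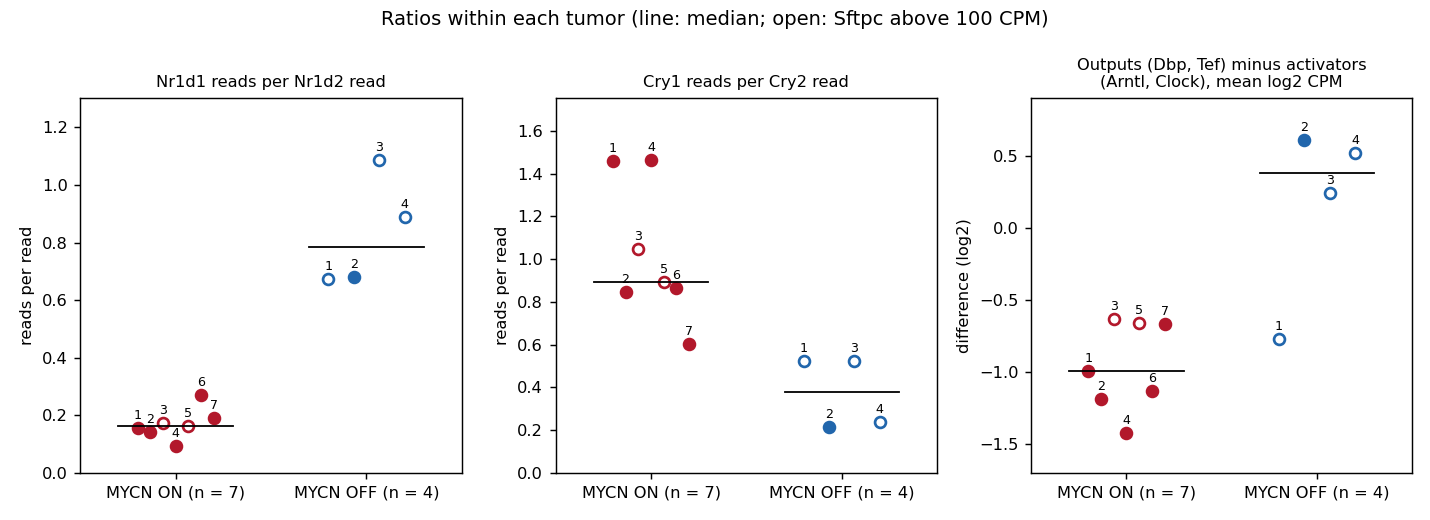
Within-tumor ratios of reads between clock genes and the output minus activator difference in log2 CPM, MYCN ON tumors left of MYCN OFF tumors, 1 point per tumor numbered by replicate, open where Sftpc exceeded 100 CPM, with a line at the group median. The Nr1d1 to Nr1d2 ratio is at most 0.270 in MYCN ON tumors and at least 0.672 in MYCN OFF tumors, while MYCN OFF tumor 1 falls among the MYCN ON tumors in the output minus activator difference. The ratios include members chosen on this contrast and are a description only.

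Lung content moved with the groups, so the members were read within each lung class. Among lung-poor tumors, Nr1d1 was 14.0 to 28.2 CPM in the 5 MYCN ON tumors and 75.9 CPM in MYCN OFF tumor 2, and Dbp was 4.14 to 12.2 CPM against 37.4 CPM. In the same tumors Per3 was 19.1 to 60.7 CPM in MYCN ON tumors against 136 CPM in MYCN OFF tumor 2, and Cry1 was 38.2 to 64.1 CPM against 25.7 CPM. MYCN OFF tumor 2 also had the highest skeletal muscle marker sum, 363 CPM, against at most 91.4 CPM in any MYCN ON tumor. Among lung-containing tumors, Nr1d1 was 18.8 to 28.3 CPM in the 2 MYCN ON tumors and 57.0 to 106 CPM in the 3 MYCN OFF tumors, and Dbp was 3.83 to 7.22 CPM against 8.003 to 33.7 CPM in the same tumors. Per3 overlapped there, at 27.1 to 84.9 CPM in MYCN ON tumors and 46.1 to 143.8 CPM in MYCN OFF tumors, and so did Cry1, at 27.2 to 65.2 CPM in MYCN ON tumors and 19.98 to 33.3 CPM in MYCN OFF tumors. The log2 fold change of Per3 within the lung-containing tumors was -0.66. MYCN OFF tumor 1 had the highest Sftpc level (9505 CPM). Of the 4 MYCN OFF tumors it had the lowest Clock, Per1, Per2, Per3, Nr1d1, Nr1d2, Dbp and Tef. Its Arntl and Cry1 levels were above those of MYCN OFF tumor 4. With a lung marker covariate in the fit, the log2 fold change was -1.87 for Nr1d1, -2.38 for Dbp, -1.28 for Per3 and 0.83 for Cry1. In that fit Nr1d1 and Dbp kept their edgeR calls, while Per3 and Cry1 lost theirs. When 1 tumor was left out, Per3 was called in 3 of 11 fits and Cry1 in 5 of 11, against 11 of 11 for Nr1d1 and for Dbp. Endothelial markers summed to 42.8 to 140 CPM in MYCN ON tumors and 48.7 to 684 CPM in MYCN OFF tumors, with 3 of 5 called lower (13.4% of all genes tested were), Kdr and Cldn5 among them. Immune markers summed to 33.6 to 110 CPM in MYCN ON tumors and 69.9 to 412 CPM in MYCN OFF tumors, with 3 of 5 tested called lower, against the same 13.4%, Csf1r and Ptprc among them. The fibroblast list (222 to 1029 CPM in MYCN ON tumors, 211 to 1147 CPM in MYCN OFF tumors) had 0 of 5 genes called by edgeR or voom, 1 by DESeq2 and 2 at an unadjusted edgeR p below 0.05. The skeletal muscle list had 0 of 4 tested genes called by edgeR or voom, 1 by DESeq2 and 1 at an unadjusted p. The hepatocyte list (0.62 to 22.6 CPM in MYCN ON tumors, 5.94 to 18.2 CPM in MYCN OFF tumors) had 1 gene tested, called by voom but not by edgeR or DESeq2 and not at an unadjusted edgeR p. Of the lung epithelium list, 3 of 10 genes were called lower, against 13.4% of all genes tested, and no marker of these lists was at 0 in all tumors. The part of these other cells in the clock gene differences was not tested beyond these values.

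Overlapping genes bear on Nr1d1, Dbp, Tef and Arntl, because the strand setting of the counts is not given in the sources used here and the library kit is not stated to keep strand. In the GENCODE M21 annotation Nr1d1 shares 263 exon bases with Thra, a thyroid hormone receptor gene on the opposite strand. Thra averaged 56.5 ± 20.2 CPM in MYCN ON tumors (SD, n = 7) and 67.1 ± 16.3 CPM in MYCN OFF tumors (SD, n = 4) and did not pass the test (edgeR adjusted p = 0.529). Nr1d1 reads per Thra read were 0.305 to 0.634 in MYCN ON tumors and 0.721 to 2.13 in MYCN OFF tumors. Dbp shares 539 exon bases with Sphk2, a sphingosine kinase gene on the opposite strand. Sphk2 was lower in MYCN ON tumors as well, at 24.6 ± 3.16 CPM against 41.1 ± 9.38 CPM in MYCN OFF tumors (SD, n = 7 and 4, log2 fold change -0.74, SE 0.18, edgeR adjusted p = 0.011). Dbp reads per Sphk2 read were 0.134 to 0.471 in MYCN ON tumors, against 0.233, 0.984, 0.911 and 0.480 in MYCN OFF tumors, overlapping through MYCN OFF tumor 1. Tef shares 193 exon bases with the antisense gene Gm17597, and Arntl 33 with the antisense gene Gm45355. Neither antisense gene is among the genes counted, so no such ratio can be given. The unknown strand setting limits Tef and Arntl too, and any part of antisense reads in their counts was not tested.

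Of 22 other clock genes, all past the filter, 2 were higher in MYCN ON tumors and 2 lower by edgeR's quasi-likelihood test with Benjamini-Hochberg adjustment over all genes, and 18 did not pass. That is 18.2% of the list, against the 29.4% called among all genes tested, and the list's median log2 fold change was 0.14, against 0.0023 over all genes. Nampt, the rate-limiting enzyme of NAD salvage and a clock output, was higher, at 144.8 to 221 CPM in MYCN ON tumors (median 180) and 117, 95.6, 116 and 88.0 CPM in MYCN OFF tumors. The groups did not overlap (log2 fold change 0.83, SE 0.16, edgeR adjusted p = 0.00385), a separation that 11.4% of all genes tested also showed in this direction. Fbxl21, a ubiquitin ligase subunit for cryptochromes, was lower, at 1.15 ± 0.525 CPM in MYCN ON tumors (SD, n = 7) and 3.20 ± 1.31 CPM in MYCN OFF tumors (SD, n = 4, edgeR log2 fold change -1.47, SE 0.45, adjusted p = 0.0309). Its groups did not overlap either, against 5.41% of all genes tested in that direction. The depth was only 4 to 21 reads per MYCN ON tumor and 25 to 54 per MYCN OFF tumor.

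Npas2, a CLOCK paralog that can pair with BMAL1, was lower in MYCN ON tumors. It averaged 1.61 ± 1.03 CPM in MYCN ON tumors (SD, n = 7), against 18.1, 2.28, 3.24 and 9.66 CPM in MYCN OFF tumors (edgeR log2 fold change -2.36, SE 0.64, adjusted p = 0.0186). MYCN OFF tumors 1 and 4 carried the difference, while MYCN OFF tumors 2 and 3 stood within the MYCN ON range of 0.531 to 3.35 CPM. Without MYCN OFF tumor 1 the log2 fold change was -1.64 and no longer called, and with the lung marker covariate it was -1.15 and not called. Gsk3b, a kinase that phosphorylates several clock proteins, was higher, at 340 ± 111 CPM in MYCN ON tumors (SD, n = 7) and 202 ± 36.1 CPM in MYCN OFF tumors (SD, n = 4, edgeR log2 fold change 0.75, SE 0.26, adjusted p = 0.0441). That call held in 5 of 22 alternatives and in 3 of the 11 fits that left out a tumor, when MYCN ON tumor 2 or 5, or MYCN OFF tumor 2, was the one removed. The call for Fbxl21 held in 8 of those 11 fits and was lost when MYCN ON tumor 2, or MYCN OFF tumor 3 or 4, was removed. It was also lost with the lung marker covariate (edgeR adjusted p = 0.115), with the replicate block (edgeR adjusted p = 0.0706) and in the lung-containing tumors alone. Over its 21 alternatives the Fbxl21 call held in 14. The lung-poor fit is among those 21, but with only 1 MYCN OFF tumor its call is not read.

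Rora, encoding a receptor that opposes REV-ERB on Arntl, did not pass the test, with a log2 fold change of -0.93 (SE 0.37, edgeR adjusted p = 0.0788). It was called lower in 4 of 22 alternatives. The lung marker covariate was among them (log2 fold change -1.40, edgeR adjusted p = 0.0443). Of the PAR bZIP family and its opponent, Hlf had a log2 fold change of 0.34 (edgeR adjusted p = 0.69) and Nfil3 one of -0.34 (adjusted p = 0.605), so neither passed. The E-box repressors Bhlhe40 (log2 fold change -0.91, edgeR adjusted p = 0.136) and Bhlhe41 (0.03, adjusted p = 0.957) and the activator-blocking factor Ciart, listed under its older symbol Gm129 (0.26, adjusted p = 0.614), did not pass either.

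Lists of genes that answer to signals known to reach Per1 were also counted. Of 7 glucocorticoid-responsive genes, 1 was higher and 1 lower in MYCN ON tumors, a share close to the 29.4% called among all genes tested. Fkbp5, a chaperone of the glucocorticoid receptor, was higher (edgeR log2 fold change 0.97, adjusted p = 0.0278), and Dusp1, a MAP kinase phosphatase, lower (log2 fold change -0.82, adjusted p = 0.0262). Of 8 immediate early genes, which respond to mitogens and to tissue handling, 5 were lower, against 13.4% of all genes tested. Junb (log2 fold change -1.54, edgeR adjusted p = 0.00563) and Egr1 (-1.73, adjusted p = 0.0105) had the smallest p. The list summed to 143 to 255 CPM in MYCN ON tumors and 284 to 539 CPM in MYCN OFF tumors. The part of these signals in the clock gene levels was not tested.

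The relation among the members within the MYCN ON group did not enter their choice by fold change. Over the 7 MYCN ON tumors, the 45 pairs of members had a median Pearson r of 0.60 between log2 CPM values, from 0.02 to 0.87, and all 45 were positive (44 of 45 with RLE scaling). The lowest was between the paralogs Nr1d1 and Nr1d2. No pair passed the two-sided exact permutation test after Benjamini-Hochberg adjustment over the 45 pairs, by r or by Spearman's rho, while 8 had an unadjusted p below 0.05 by r and 11 by rho. The 3 largest r were between Per1 and Cry1, Dbp and Tef, and Nr1d1 and Tef. Per1 and Cry1 had r = 0.87 and rho = 0.79 (exact permutation p = 0.0159 and 0.048, adjusted 0.126 and 0.196), and r was 0.86 without the 2 tumors farthest from the median of Per1. Dbp and Tef had r = 0.86 and rho = 0.79 (exact permutation p = 0.0137 and 0.048, adjusted 0.126 and 0.196), and r was 0.82 without the 2 tumors farthest from the median of Dbp. Nr1d1 and Tef had r = 0.85 and rho = 0.89 (exact permutation p = 0.0169 and 0.0123, adjusted 0.126 and 0.138), and r was 0.77 without the 2 tumors farthest from the median of Nr1d1.

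The pairs of an activator with a repressor or an output, many of whose transcripts cycle out of phase in mouse tissues, were positive as well, in 16 of 16 pairs, with a median r of 0.58 (0.30 to 0.84). MYCN ON tumor 5 had the lowest level of the 7 for 6 members, Arntl, Clock, Per1, Per2, Cry1 and Dbp, and tumor 7 the highest for 5, Arntl, Per1, Per2, Dbp and Tef. Among the 5 lung-poor MYCN ON tumors, 40 of 45 pairs stayed positive with a median r of 0.53. Activator pairs were among those that turned, Arntl with Cry1 (r = -0.08) and Clock with Cry1 (r = -0.05). Without the 2 tumors farthest from the median of each first gene, 38 of 45 were positive. There Arntl with Per3 (r = -0.09) and Arntl with Nr1d2 (r = -0.07) were among those that turned. For each member, 48.6% to 50.8% of all other genes tested had a positive r with it over the same tumors, and all 9 other members did. The pairs share tumors and genes and are not independent of one another, and the 4 MYCN OFF tumors are too few for a correlation.

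**Figure D4:**
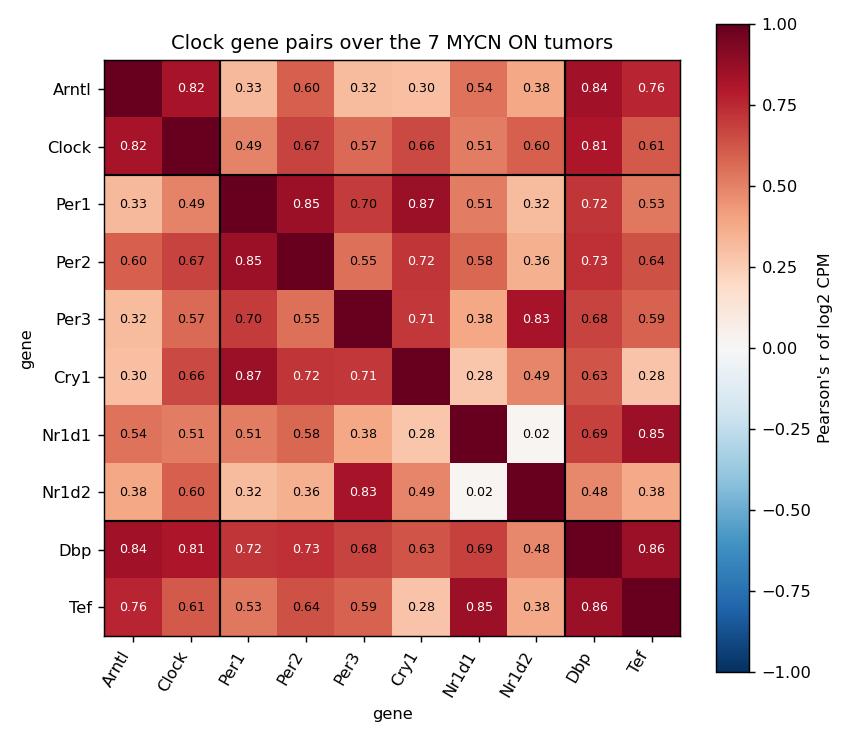
Pearson r of log2 CPM between each pair of the 10 clock genes over the 7 MYCN ON tumors, ordered by role, activators first, and coloured from -1 to 1. All 45 pairs are positive (44 with RLE scaling), from 0.02 between Nr1d1 and Nr1d2 to 0.87 between Per1 and Cry1, and none passed the exact permutation test after adjustment over the 45 pairs.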

How the data were processed

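RNA from 11 tumors was sequenced as poly(A) libraries, made with the NEBNext Ultra kit per the labels' protocols. Per the submitters' processing notes, bcl2fastq 1.8.4, TopHat2 2.0.8b, HTSeq 0.6.1 and build mm9 were used; annotation and strand setting are not given in the sources used here. For each tumor the authors deposited raw counts of reads by gene symbol. Summary rows naming no gene stayed out of library sizes: reads without a gene were 14.8% to 21.5% and non-unique alignments 9.15% to 20.9% per tumor.

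These were fitted with edgeR 4.0.16 (R 4.3.3), using filterByExpr by group (minimum count 10, total 15), TMM factors, robust quasi-likelihood fit, Benjamini-Hochberg adjustment over 15237 genes, threshold 0.05. TMM factors were 0.835 to 1.01 in MYCN ON and 1.09 to 1.22 in MYCN OFF tumors. The common biological coefficient of variation was 53.7%. Log2 CPM used a prior count of 2. Correlations and their permutation p used numpy 2.4.6, with ranks from scipy 1.17.1. All 5040 pairings were used, whose smallest possible p is 0.000198. The fit was tested on simulated counts. Alternatives were other scalings, DESeq2 1.42.0, limma 3.58.1 voom, other filters, a replicate block, a lung covariate, lung classes alone and each tumor left out. The labels state no pairing of tumors by replicate number.

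The members and lists were chosen with earlier results of these data known. Named genes were all members, called genes of the other clock list and 8 listed members of it (1 further gene is not reported here), Mycn, Thra and at most 2 called genes per other list; Sphk2 was added for its overlap with Dbp. Replicates of a group differed by more than sampling noise. The labels do not place tumors in separate mice, so p-values reflect only the spread between samples, which may be technical. The lung classes were set after seeing the data. Of the marker lists, neuroendocrine genes had 1 called higher (Uchl1) and lung epithelium 3 called lower.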

Additional observations from a re-analysis of the deposited data

How the results depend on the processing

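Over 22 alternatives the log2 fold change ranged from -2.20 to -1.74 for Nr1d1, -2.42 to -1.76 for Dbp, -1.85 to -0.66 for Per3 and 0.54 to 0.99 for Cry1. Genes called numbered 4475, but 1498 with the lung covariate and 0 by edgeR in lung-poor or in lung-containing tumors alone (2288 and 3898 at an unadjusted p below 0.05, with 4 and 3 of the members); leaving out a tumor gave 2862 to 5393. The lung-containing fit was added after seeing the data. Higher and lower calls were 2437 and 2038 with TMM, 2142 and 2323 with RLE, 1697 and 2894 with upper quartile factors and 1317 and 3347 with library totals, which moved the median gene by -0.21 (upper quartile) and -0.31 (totals).

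The members were chosen on this contrast, so nothing is read from their counts. Members called higher were 1, but 0 with upper quartile factors, totals, the lung covariate and either lung class alone, 2 with voom and 0 to 2 leaving out a tumor. Members called lower were 3, but 4 with upper quartile factors, totals, DESeq2, voom and the replicate block. They were 0 in the lung-containing tumors alone, 2 with the lung covariate and 2 to 4 leaving out a tumor. Other clock genes called higher were 2, but 1 with RLE, upper quartile factors, totals, no filter, the stricter filter and the lung covariate, 5 with voom, 3 with DESeq2, 0 in either lung class alone and 1 to 5 leaving out a tumor. Those called lower were 2, but 3 with upper quartile factors, totals and DESeq2, and 1 with the block or the lung covariate. They were 0 in the lung-containing tumors alone and 1 to 3 leaving out a tumor. With the stricter filter 0 of 20 tested were called lower, but Npas2 and Fbxl21 did not pass that filter.

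Signs reversed for these genes, none of them called: Bhlhe41 (RLE -0.027, upper quartile -0.14, totals -0.27, DESeq2 -0.027, no filter -0.0038, stricter filter -0.032, lung covariate -0.33, lung-poor -0.93, without a tumor -0.22 to 0.60), Gm129 (totals -0.050), Hlf (voom -0.24, lung covariate -0.12, lung-containing -0.35, without a tumor -0.093 to 0.53), Clock (without a tumor -0.19 to 0.17), Nfil3 (lung-poor 0.56, without a tumor -0.53 to 0.014) and Bhlhe40 (lung-poor 0.0056). The cause was not tested. Same-numbered tumors correlated at -0.16, 0.46, -0.08 and 0.26. Differently numbered tumors were not compared, so these values cannot decide whether the numbers pair tumors. With the replicate block 3024 genes were called, and Clock stood at 0.047 and Hlf at -0.31.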

Other observations

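Pairs of a member with 1 of the 22 other clock genes over the 7 MYCN ON tumors numbered 220. None passed the two-sided exact permutation test after adjustment (smallest adjusted p 0.393), and 22 had an unadjusted p below 0.05.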
